A study of Saccharomyces cerevisiae with 12 samples.

Results

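The 10 genes described here are the acid phosphatase genes PHO5, PHO3, PHO11 and PHO12 and 6 other genes of phosphate supply, namely PHO8, PHO89, PHO90, GIT1, SPL2 and PHM6. They were chosen by their systematic names from a count table of 7150 genes of budding yeast, as genes of 1 pathway, with earlier results of these data known. Counts among them are therefore a description and no independent evidence. All 10 passed the filter on low counts, as did 6171 genes in all. After removal of ribosomal RNA, total RNA was sequenced from log-phase cells grown at 30 °C in rich medium with 2% glucose, in 12 libraries of 4 genotypes. The wild type (wt, n = 3) is BY4741, of mating type a, with his3del1, leu2del0, met15del0 and also ura3del0. The libraries labelled cyc8 (n = 3) come from YAFTCD4, which is BY4741 with cyc8::KAN. The libraries labelled snf2 (n = 2) come from FY2083, also of mating type a, which carries snf2::LEU2 beside his3del200, trp1-del63 and lys2del0 and has ura3del0 and met15del0 as BY4741 does. The libraries labelled with both mutations (cyc8 snf2, called the double mutant, n = 4) come from YDB1.7, which is FY2083 with cyc8::URA3 added. The strain background thus changes with the snf2 label, and in every comparison across it the mutation and the background cannot be told apart. Each mutant genotype is a single named strain, and the labels do not say whether its libraries stem from different cultures. The p-values thus reflect how far these libraries scatter, and that scatter may be technical.

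Library totals were 16378131 to 27230568 counts. Transcripts of the mutated genes were not lost, with mean SNF2 levels of 66.0 to 109 CPM (counts divided by the TMM-scaled library size in units of 1e+06) and mean CYC8 levels of 53.2 to 77.1 CPM over the 4 groups. The transcripts thus do not bear out the labels, and they do not show them wrong either, since a disrupted gene may leave transcript. The names cyc8, snf2 and double mutant stand below for the libraries labelled so. Of 6 genes of a cells, 5 were lower in cyc8 and 4 in snf2 against wt (edgeR adjusted p below 0.05 and a log2 fold change of 1 or more in size), where 3.48% and 5.4% of all genes tested were lower. The alpha-factor genes stayed at or below 0.626 CPM in every library, and STE3, the receptor gene of alpha cells, had means of 3.16 CPM in wt, 0.765 CPM in cyc8, 9.23 CPM in snf2 and 0.298 CPM in the double mutant. The part of these cell-type genes in the results was not tested. In bulk samples, fewer cells of a kind and less RNA per cell cannot be told apart.

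Budding yeast answers a shortage of inorganic phosphate through the PHO pathway. The DNA-binding protein Pho4, with its partner Pho2, activates the pathway's genes. When phosphate is plentiful the cyclin-kinase pair Pho80-Pho85 phosphorylates Pho4 and keeps it out of the nucleus, and the inhibitor Pho81 blocks the kinase when phosphate is short. The targets include secreted acid phosphatases, which free phosphate from organic esters outside the cell, high-affinity transporters, which carry it in, and enzymes that store it as polyphosphate. PHO5, the best studied target, is a classic case of a promoter whose nucleosomes are removed on activation. Cyc8 (also Ssn6) works with Tup1 as a corepressor brought to promoters by DNA-binding proteins, and Snf2 is the motor subunit of Swi-Snf, a chromatin remodelling complex. How these complexes act against each other on the same genes is the question that the series names in its title.

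Pho4 is known to bind the 6 letters CACGTG and, less tightly, CACGTT. These motifs were searched on both strands in the 500 bases before each start codon, CACGTT also as its reverse complement AACGTG. At least 1 of them stood before 7 of the 10 genes, and neither stood before PHO3, PHO90 or GIT1. Among 6000 genes with such a window, 6.233% had CACGTG, 16.017% had CACGTT and 21.0% had either. PHO5, PHO11, PHO12, PHO89 and PHM6 each had 1 of each motif, PHO8 had only AACGTG, and SPL2 had CACGTG at 4 places. These are matches of letters and no evidence of binding. The windows below are from the RefSeq sequence of build R64, the build of the files, read 5′ to 3′ on the strand of the gene, with the motif in capitals. They are shown because the genes that share the motifs differed in direction between the groups, as the values further on show.
PHO5, chrII:431296-431325, minus strand: atattaaattagCACGTTttcgcatagaac
PHO5, chrII:431187-431216, minus strand: ccttggcactcaCACGTGggactagcacag
PHO12, chrVIII:551669-551698, plus strand: ttattaaattacCACGTTttcgcataacat
PHO12, chrVIII:551804-551833, plus strand: tcttggcgttcaCACGTGggtttaaaaagg
PHO89, chrII:798968-798997, minus strand: tttcgtcatcccCACGTTgtgccattaatt
PHO89, chrII:798828-798857, minus strand: atgacaatgcagCACGTGggagacaaatag
PHM6, chrIV:1022583-1022612, minus strand: gagcttcgctgaCACGTGggaggtgggata
SPL2, chrVIII:375444-375473, minus strand: agtatttttgctCACGTGaccgacaagggt
SPL2, chrVIII:375230-375259, minus strand: aaatgatgtacgCACGTGggcgaaagttca
SPL2, chrVIII:375173-375202, minus strand: tctctcttttccCACGTGctccgctctctt
SPL2, chrVIII:375114-375143, minus strand: agtcactgcagcCACGTGcctagatctatt

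The CACGTG of PHO5 lay 253 to 248 bases before its start codon and the CACGTT 362 to 357 bases before it. In PHO12 they lay 283 to 278 and 418 to 413 bases before the start codon. PHO11 had the same 30 letters as PHO12 around both motifs. The PHO5 and PHO12 windows differed at 9 of 30 bases around CACGTG and at 5 of 30 around CACGTT. The 4 CACGTG of SPL2 began 361, 147, 90 and 31 bases before its start codon. The SPL2 model begins 209 bases before the start codon, so those at 147, 90 and 31 lie inside it. Both motifs of PHO5 lie inside its model too, which begins 466 bases before the start codon. A model is an interval of the annotation, and a place inside it does not show that a motif is transcribed.

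**Figure D1:**
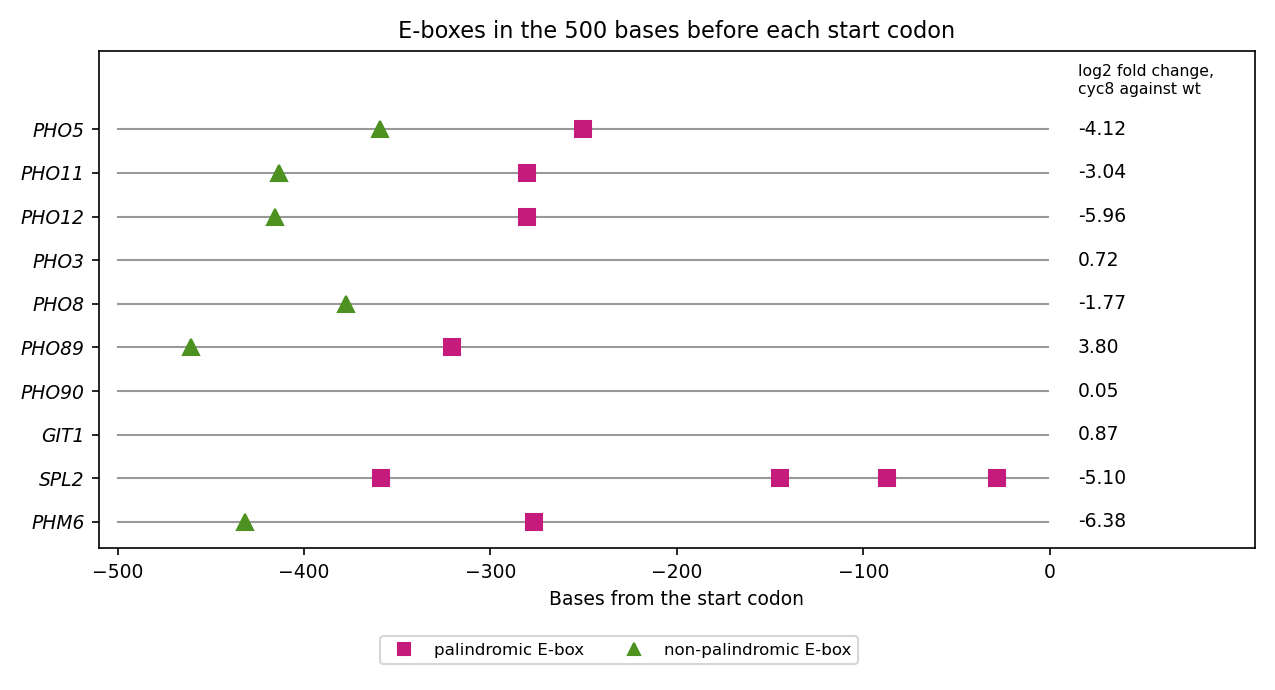
Matches of CACGTG and of CACGTT on either strand in the 500 bases before the start codon of each of the 10 genes. Squares are CACGTG (the palindromic E-box) and triangles CACGTT (the non-palindromic E-box). The x axis gives bases from the start codon, and the log2 fold change in cyc8 against wt is printed at the right. PHO5, PHO11, PHO12 and PHM6 (log2 -3.04 to -6.38) and PHO89 (3.80) all have 1 of each, SPL2 has 4 squares, and PHO3, PHO90 and GIT1 have no match.

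Longer windows are shown for a gene that fell and a gene that rose in the cyc8 libraries and that share both motifs, PHO12 and PHO89. Each starts 400 bases before the start codon, is 300 bases long and holds the CACGTG, while the CACGTT lies further out.
PHO12, chrVIII:551699-551998, plus strand: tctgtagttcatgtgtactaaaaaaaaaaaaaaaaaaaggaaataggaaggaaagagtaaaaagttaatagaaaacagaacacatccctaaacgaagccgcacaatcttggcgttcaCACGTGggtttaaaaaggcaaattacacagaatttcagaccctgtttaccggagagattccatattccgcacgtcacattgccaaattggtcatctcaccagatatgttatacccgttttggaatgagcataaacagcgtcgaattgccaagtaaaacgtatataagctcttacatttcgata
PHO89, chrII:798623-798922, minus strand: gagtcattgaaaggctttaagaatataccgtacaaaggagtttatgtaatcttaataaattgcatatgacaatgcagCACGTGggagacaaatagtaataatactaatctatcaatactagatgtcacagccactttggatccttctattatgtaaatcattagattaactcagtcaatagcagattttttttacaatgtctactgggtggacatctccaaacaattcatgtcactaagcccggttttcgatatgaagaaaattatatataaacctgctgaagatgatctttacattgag

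A gene was called where edgeR's quasi-likelihood test gave a Benjamini-Hochberg adjusted p below 0.05 over the 6171 genes and the log2 fold change was 1 or more in size. The words higher, lower, rose and fell refer to such calls. Each comparison below shares libraries with some of the others, though cyc8 against wt and the double mutant against snf2 share none. All come from 1 fit, so calls in different comparisons are not independent. In cyc8 against wt, 1 of the 10 genes rose, PHO89, and 6 fell, PHO5, PHO11, PHO12, PHO8, SPL2 and PHM6. Of all genes tested 10.4% were higher and 3.48% lower in this comparison. The median log2 fold change was -2.40 over the 10 genes and -0.05 over all genes tested. In snf2 against wt, 8 of the 10 fell, all but PHO90 and GIT1, and 0 rose, where 5.4% of all genes were lower and 4.25% higher. The median was -3.80 over the 10 and 0.02 over all genes. In the double mutant against snf2, PHO3, PHO89 and SPL2 rose and PHO12 and PHM6 fell, against 9.12% of all genes higher and 3.08% lower. The median there was 0.11 over the 10 and -0.03 over all genes.

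**Figure D2:**
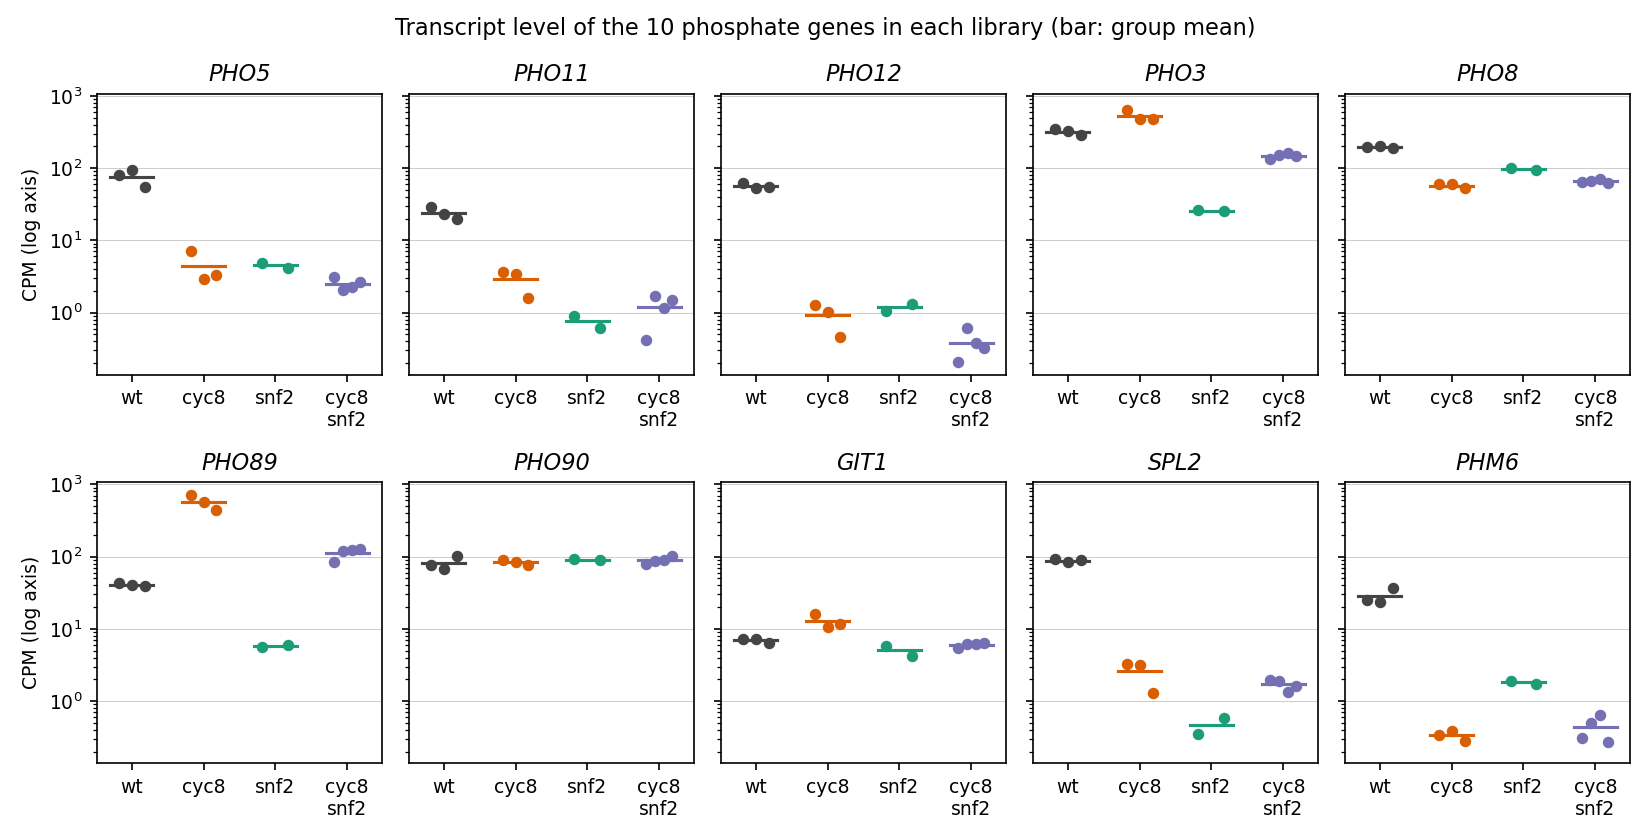
Level of each of the 10 genes in CPM on a log axis, 1 panel a gene, with 1 point per library and a bar at the mean of each of the 4 genotypes. PHO5, PHO11, PHO12, PHO8, SPL2 and PHM6 are highest in the 3 wt libraries, PHO89, PHO3 and GIT1 are highest in the 3 cyc8 libraries, and PHO90 overlaps between all groups.

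PHO5 (YBR093C) codes for the main secreted acid phosphatase that is made when phosphate is short. Its coding sequence lies at chrII:429548-430951 on the minus strand. In the annotation of the table the transcript model of the downstream gene PHO3 runs over 1353 bases of the PHO5 model, and by the values of nested genes reads shared by models were left out. The PHO5 counts therefore come from 573 bases, of which 107 are coding and 466 lie before the start codon. Which of these 466 bases are part of the mRNA was not examined. The PHO5 values here may thus rest on fewer bases of mRNA, and they leave out most of its coding sequence. PHO5 stood at 79.1, 94.2 and 53.9 CPM in wt, at 7.04, 2.92 and 3.36 CPM in cyc8, at 4.89 and 4.19 CPM in snf2, and at 3.06, 2.06, 2.24 and 2.65 CPM in the double mutant. Every wt library was above every mutant library, and the cyc8 libraries overlapped with both other mutants. PHO5 fell 17.1-fold in cyc8 against wt (log2 fold change -4.12 ± 0.30 SE, edgeR adjusted p = 4.054e-07) and 16.7-fold in snf2 against wt (log2 -4.06 ± 0.35, adjusted p = 4.294e-06). Between snf2 and the double mutant the log2 difference was -0.86 ± 0.35, which missed the threshold (edgeR adjusted p = 0.06516). Its neighbour on the other side, PBY1, 552 bases away, had a log2 difference of -0.38 ± 0.09 in cyc8 against wt and was not called.

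PHO11 (YAR071W) and PHO12 (YHR215W) code for minor acid phosphatases of the same regulation, near the ends of chromosomes I and VIII. Their coding sequences, chrI:225460-226863 and chrVIII:552099-553502, both on the plus strand, differ at 4 of 1404 bases. Of their 50-base words 88.3% and 87.2% occur elsewhere in the genome, so the counts of each rest on few unique positions and how reads were split between the copies is uncertain. PHO12 was at 61.6, 53.2 and 54.5 CPM in wt. In cyc8 it was at 1.26, 1.03 and 0.460 CPM, in snf2 at 1.05 and 1.31 CPM, and in the double mutant at 0.208, 0.603, 0.383 and 0.325 CPM, the last from 4 to 12 counts a library. The wt libraries stood far above all others, the double mutant libraries were all below the snf2 libraries, and the cyc8 libraries overlapped with both. PHO12 fell 61.6-fold in cyc8 against wt (log2 -5.96 ± 0.23, edgeR adjusted p = 8.935e-11), 48.0-fold in snf2 against wt (log2 -5.58 ± 0.26) and 3.10-fold from snf2 to the double mutant (log2 -1.60 ± 0.37, edgeR adjusted p = 0.002921).

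PHO11 was at 28.9, 22.8 and 19.5 CPM in wt, at 3.66, 3.43 and 1.61 CPM in cyc8, at 0.908 and 0.614 CPM in snf2, and at 0.415, 1.71, 1.15 and 1.52 CPM in the double mutant. Here too the wt libraries were apart from all others, and the double mutant libraries overlapped with both single mutants. It fell 8.17-fold in cyc8 (log2 -3.04 ± 0.32, edgeR adjusted p = 8.089e-06) and 31.2-fold in snf2 (log2 -4.94 ± 0.44, adjusted p = 3.991e-06) against wt. In the double mutant against snf2 the log2 difference was 0.64 ± 0.51 (edgeR adjusted p = 0.3234). The number of PHO12 counts per PHO11 count was 2.135 to 2.797 in the wt libraries and 0.286 to 0.344 in the cyc8 libraries. It was 1.15 and 2.12 in snf2 and 0.214 to 0.500 in the double mutant, so the near-identical genes did not keep 1 ratio across groups. Beyond PHO12, 787 bases away, IMD2 also fell in cyc8 against wt (log2 -3.40 ± 0.23), while its level in snf2 was 199 CPM against 117 CPM in wt. Beyond PHO11, 878 bases away, YAR073W rose in cyc8 against wt (log2 2.21 ± 0.40), from a mean of 0.281 CPM to 1.34 CPM. It also rose from snf2 to the double mutant (log2 2.64 ± 0.41).

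PHO3 (YBR092C) codes for the constitutive acid phosphatase, which also acts on thiamine phosphates and is repressed by thiamine rather than by phosphate. It lies next to PHO5, at chrII:427698-429101 on the minus strand, with a coding sequence 86.5% identical to that of PHO5. Its counts come from 1845 bases that hold all of its coding sequence. PHO3 was at 349, 323 and 289 CPM in wt, at 627, 473 and 479 CPM in cyc8, at 26.4 and 25.2 CPM in snf2, and at 133, 154, 160.3 and 149 CPM in the double mutant. The 4 groups did not overlap, with cyc8 highest, then wt, the double mutant and snf2. PHO3 fell 12.4-fold in snf2 against wt (log2 -3.63 ± 0.15, edgeR adjusted p = 8.005e-10) and rose 5.77-fold from snf2 to the double mutant (log2 2.53 ± 0.14, edgeR adjusted p = 5.622e-09). In cyc8 against wt the log2 difference was 0.72 ± 0.11 (edgeR adjusted p = 0.0001382), under the minimum fold.

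The levels of the neighbouring genes PHO5 and PHO3 thus moved apart in the groups with the cyc8 label, while in snf2 against wt both fell. In wt there were 3.42 to 5.36 PHO3 counts per PHO5 count, and in snf2 there were 5.40 and 6.02. In cyc8 there were 89.1 to 162.1 and in the double mutant 43.3 to 74.7. The ranges of the groups with the cyc8 label lay above those of both groups without it. Both genes are counted only over the bases that their models do not share, and the ratio is between counts, not between amounts of RNA.

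**Figure D3:**
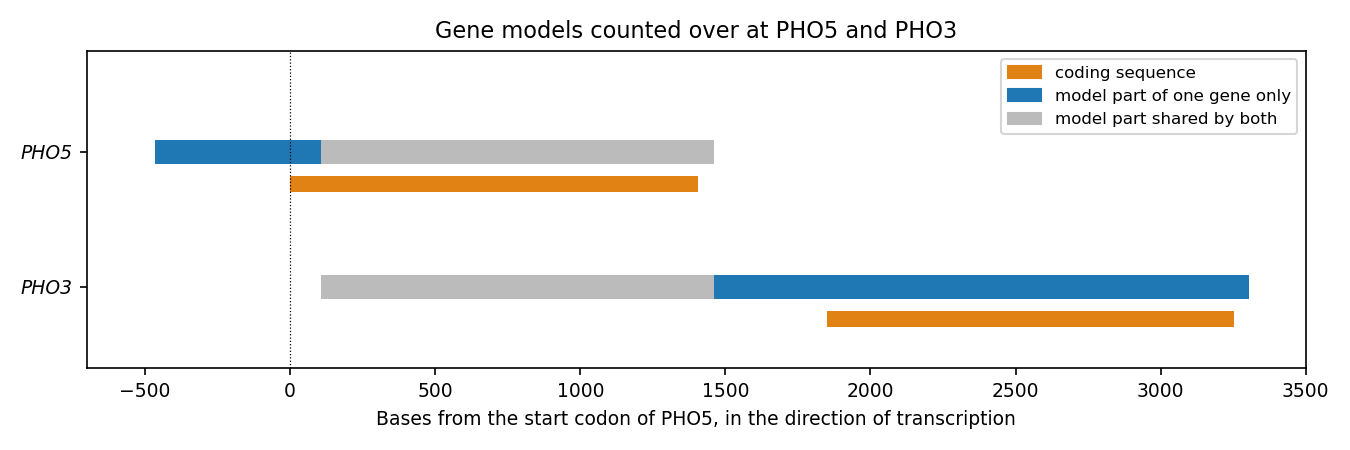
Gene models of PHO5 and PHO3 drawn to scale, in bases from the start codon of PHO5 in the direction of transcription (blue, part of 1 model only; grey, shared by both; orange, coding sequence). The shared stretch of 1353 bases leaves 573 bases of PHO5, mostly before its start codon, and 1845 bases of PHO3 with its whole coding sequence.

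Thiamine genes were set beside PHO3 because thiamine represses it. In cyc8 against wt 7 of 16 rose and 0 fell, against 10.4% of all genes higher and 3.48% lower, led by the thiazole enzyme gene THI4 (16.9-fold) and the thiamine transporter gene THI7 (11.3-fold). In snf2 against wt 4 of 16 rose and 0 fell, against 4.25% and 5.4% of all genes, and PHO3 fell. In the double mutant against snf2 4 of 16 rose and 2 fell, against 9.12% and 3.08% of all genes, THI4 6.40-fold and THI7 6.15-fold among the higher, and PHO3 rose. THI5, THI11, THI12 and THI13 are near-identical, so their counts are uncertain: they are 3 of the 7 that rose in cyc8, all 4 that rose in snf2 and both that fell from snf2 to the double mutant. The part of thiamine in the levels of PHO3 was not tested. The median log2 fold change of the list was 0.93, 0.42 and -0.13 in these comparisons.

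PHO8 (YDR481C), at chrIV:1418434-1420305 on the minus strand, codes for the vacuolar alkaline phosphatase. Of the motifs searched, only AACGTG stands in the 500 bases before its start codon, 380 to 375 bases away. Sequence further out was not searched. It was at 196, 201 and 188 CPM in wt, at 59.4, 59.5 and 53.0 CPM in cyc8, at 98.7 and 93.1 CPM in snf2, and at 63.3, 67.3, 70.3 and 62.2 CPM in the double mutant. The groups did not overlap, with wt highest, then snf2, the double mutant and cyc8. The last step, the double mutant against cyc8, was not called (log2 0.20 ± 0.07, edgeR adjusted p = 0.06588). PHO8 fell 3.40-fold in cyc8 against wt (log2 -1.77 ± 0.08, edgeR adjusted p = 2.741e-10) and 2.03-fold in snf2 against wt (log2 -1.02 ± 0.08, edgeR adjusted p = 8.097e-07). The latter sits at the minimum fold, and the call was lost with upper-quartile scaling (log2 -0.97) and without snf2 replicate 2 (log2 -0.98). The double mutant differed from snf2 by a log2 value of -0.54 ± 0.08 (edgeR adjusted p = 7.275e-05), under the minimum fold.

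PHO89 (YBR296C) codes for a sodium-phosphate cotransporter of the plasma membrane that works best at alkaline pH. It lies on the minus strand, in a model at chrII:796326-798581 that overlaps PCA1 on the opposite strand by 174 bases. PHO89 was at 43.7, 40.2 and 39.3 CPM in wt, at 717, 567 and 435 CPM in cyc8, at 5.55 and 5.99 CPM in snf2, and at 85.0, 118, 124 and 126 CPM in the double mutant. No groups overlapped, and the order was cyc8, double mutant, wt and snf2. It rose 14.0-fold in cyc8 against wt (log2 3.80 ± 0.19, edgeR adjusted p = 1.008e-08) and 19.6-fold from snf2 to the double mutant (log2 4.30 ± 0.24, edgeR adjusted p = 4.746e-08). It fell 7.11-fold in snf2 against wt (log2 -2.83 ± 0.23, edgeR adjusted p = 2.618e-06) and 5.05-fold from cyc8 to the double mutant (log2 -2.34 ± 0.16, edgeR adjusted p = 9.504e-07). The double mutant was 2.76-fold above wt. PCA1 on the other strand differed from wt by a log2 value of 0.40 ± 0.11 in cyc8 and was not called. MAL33, 701 bases beyond the start of PHO89, rose in cyc8 against wt (log2 2.66 ± 0.11) and from snf2 to the double mutant (log2 1.54 ± 0.12), as PHO89 did, but it rose in snf2 against wt as well (log2 1.20 ± 0.12), where PHO89 fell.

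PHO89 is also known to respond to alkaline pH, through calcineurin and through relief from the repressors Nrg1, Nrg2 and Mig2. Of 16 calcium and alkaline pH genes tested, 4 rose, ENA1, NRG1, NRG2 and MIG2, and 0 fell in cyc8 against wt, against 10.4% of all genes higher and 3.48% lower. ENA1, which codes for a sodium pump, rose 79.4-fold from a mean of 3.68 CPM to 292 CPM. ENA2, also in the list, had 0 counts in every library and was not tested. How reads were split between the ENA genes is uncertain, which limits the ENA1 values here. NRG1, NRG2 and MIG2 code for those repressors. From snf2 to the double mutant ENA1, NRG1 and NRG2 rose, ENA1 82.9-fold, and 0 fell, against 9.12% and 3.08% of all genes. In snf2 against wt MIG2 rose and FKS2, NRG1 and ENA1 fell, ENA1 2.06-fold, against 4.25% of all genes higher and 5.4% lower. The part of calcium or pH in the levels of PHO89 was not tested. With upper-quartile scaling 2 in place of 3 genes of the list fell in that comparison.

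PHO90 (YJL198W), on chromosome X at 60794 to 63655 on the plus strand, codes for a low-affinity phosphate transporter that is not a Pho4 target. It was at 75.8, 66.6 and 101.5 CPM in wt, at 90.5, 85.3 and 76.0 CPM in cyc8, at 92.2 and 89.6 CPM in snf2, and at 79.1, 86.0, 88.3 and 102 CPM in the double mutant. The wt libraries alone spanned nearly all the others. The log2 difference was 0.05 ± 0.14 in cyc8 against wt, 0.16 ± 0.15 in snf2 against wt and -0.03 ± 0.15 in the double mutant against snf2, with edgeR adjusted p of 0.8092, 0.4458 and 0.8788. These errors do not show that its level was equal in all groups.

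GIT1 (YCR098C), on chromosome III at 296794 to 298843 on the minus strand, codes for the permease that takes up glycerophosphoinositol and glycerophosphocholine. It was at 7.14, 7.27 and 6.43 CPM in wt, at 16.1, 10.6 and 11.6 CPM in cyc8, at 5.86 and 4.19 CPM in snf2, and at 5.50, 6.18, 6.20 and 6.28 CPM in the double mutant. The cyc8 libraries were above all others, and the double mutant overlapped with snf2. In cyc8 against wt the log2 difference was 0.87 ± 0.17 (edgeR adjusted p = 0.000869), under the minimum fold. From cyc8 to the double mutant GIT1 fell 2.11-fold (log2 -1.07 ± 0.16, edgeR adjusted p = 0.000405), and the call was lost without cyc8 replicate 1 (log2 -0.88).

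Levels of the 3 transporter genes were compared per length, as mean CPM per kb of the bases that their models do not share. In wt PHO90 stood at 28.4, PHO89 at 18.2 and GIT1 at 3.39 CPM per kb. In cyc8 PHO89 was the highest at 254 CPM per kb, against 29.3 for PHO90 and 6.23 for GIT1. In snf2 the values were 31.8 for PHO90, 2.56 for PHO89 and 2.45 for GIT1, and in the double mutant PHO89 was again above PHO90, at 50.2 against 31.1 CPM per kb.

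SPL2 (YHR136C) codes for a small protein that lowers the activity of the low-affinity transporters Pho87 and Pho90 when phosphate is short. Its model lies at chrVIII:374514-375309 on the minus strand. SPL2 was at 91.5, 83.4 and 89.1 CPM in wt, at 3.26, 3.18 and 1.29 CPM in cyc8, at 0.349 and 0.576 CPM in snf2, from 10 and 15 counts, and at 1.97, 1.91, 1.34 and 1.62 CPM in the double mutant. The wt libraries were far above the rest, the snf2 libraries were the lowest, and cyc8 and the double mutant overlapped. It fell 34.2-fold in cyc8 against wt (log2 -5.10 ± 0.23, edgeR adjusted p = 1.325e-09) and 190.3-fold in snf2 against wt (log2 -7.57 ± 0.34, edgeR adjusted p = 4.142e-09). From snf2 to the double mutant it rose 3.70-fold (log2 1.90 ± 0.41, edgeR adjusted p = 0.001959), to a level still far under wt. ARO9, whose model starts 88 bases away and is read the other way, fell with it in cyc8 (log2 -3.21 ± 0.19) and in snf2 (log2 -2.92 ± 0.22) against wt. From snf2 to the double mutant ARO9 fell (log2 -1.14 ± 0.21) where SPL2 rose.

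PHM6 (YDR281C), a phosphate-responsive gene of unknown function, has a model at chrIV:1021667-1022436 on the minus strand that overlaps RRP45 on the opposite strand by 105 bases. It was at 24.8, 23.2 and 37.2 CPM in wt, at 0.343, 0.386 and 0.276 CPM in cyc8, at 1.89 and 1.73 CPM in snf2, and at 0.311, 0.502, 0.639 and 0.271 CPM in the double mutant. Both groups with the cyc8 label had 5 to 10 counts a library, and both were below every snf2 library. It fell 84.7-fold in cyc8 (log2 -6.38 ± 0.28, edgeR adjusted p = 3.567e-10) and 15.7-fold in snf2 (log2 -3.97 ± 0.25, edgeR adjusted p = 6.562e-08) against wt. It fell a further 4.19-fold from snf2 to the double mutant (log2 -2.08 ± 0.34, edgeR adjusted p = 0.0002204). RRP45 stayed within 18.9 to 24.6 CPM as group means and was not called in any of these comparisons.

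The change that goes with the cyc8 label was compared between the backgrounds by the interaction, that is the log2 fold change of the double mutant against snf2 minus that of cyc8 against wt. It was above 0 and called for 7 of the 10 genes, PHO5, PHO3, PHO11, PHO12, PHO8, SPL2 and PHM6, and called below 0 for 0. Of all genes tested 4.2% had a higher and 4.7% a lower interaction, and the median was 2.54 over the 10 genes and -0.01 over all. The value was largest for SPL2, at 7.01 ± 0.45 on the log2 scale (edgeR adjusted p = 2.783e-07), which fell with the cyc8 label in BY4741 and rose with it in the snf2 background. For PHO12 and PHM6, which fell in both, it was 4.36 ± 0.52 (edgeR adjusted p = 4.867e-05) and 4.30 ± 0.52 (adjusted p = 6.448e-05). The snf2 libraries were already low for these genes, with 10 to 54 counts a library for SPL2, PHO12 and PHM6 against 488 to 2283 in wt. PHO11 had 16 and 26 counts in snf2 against 467 to 720 in wt, and PHO5 had 109 and 140 against 1292 to 1982. For PHO89, which rose in both backgrounds, the interaction was 0.49 ± 0.27 and was not called (edgeR adjusted p = 0.2152). The interaction uses the same 12 libraries as the comparisons above, and in it the snf2 label and the strain background cannot be told apart.

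**Figure D4:**
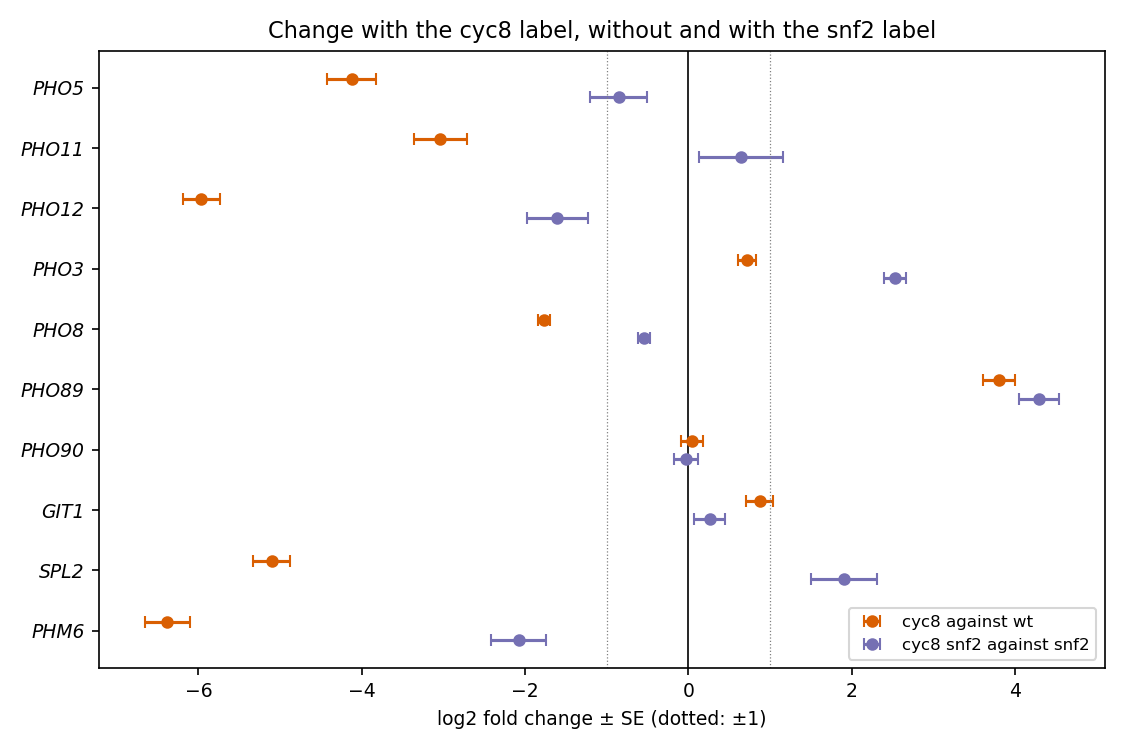
Log2 fold change of each of the 10 genes with the cyc8 label, in BY4741 (orange, cyc8 against wt) and in the snf2 background (purple, double mutant against snf2), with bars of 1 SE and dotted lines at a log2 value of 1 in either direction. The points of PHO89 lie close together at 3.80 and 4.30 and those of PHO90 near 0, while those of SPL2 lie on opposite sides of 0, at -5.10 and 1.90.

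From cyc8 to the double mutant 5 of the 10 genes fell, PHO3, PHO11, PHO12, PHO89 and GIT1, and 0 rose, where 3.01% of all genes were lower and 0.924% higher. PHO3 fell 3.54-fold (log2 -1.82 ± 0.10, edgeR adjusted p = 2.893e-08). PHO11 and PHO12 passed only narrowly, with log2 values of -1.26 ± 0.39 and -1.23 ± 0.37 and edgeR adjusted p of 0.03977 and 0.03637, and 9 and 8 of 22 other settings lost these calls. In the double mutant against wt PHO89 rose and 7 fell, PHO5, PHO3, PHO11, PHO12, PHO8, SPL2 and PHM6, where 9.71% of all genes were higher and 3.97% lower. In snf2 against cyc8 PHM6 rose and PHO3, PHO11, PHO89, GIT1 and SPL2 fell, where 3.37% of all genes were higher and 10.9% lower. The PHO11 call there was lost without snf2 replicate 2 (log2 -1.70, edgeR adjusted p = 0.05617). Of all calls in that comparison 23.7% were higher, and 35.8% with upper-quartile scaling.

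A list of 28 other genes holds those of phosphate uptake, signalling and storage and CTF19, a kinetochore gene. In cyc8 against wt 7 of the 28 fell and 2 rose, where 3.48% of all genes were lower and 10.4% higher. In snf2 against wt 10 fell and 1 rose, where 5.4% were lower and 4.25% higher. In the double mutant against snf2 1 fell and 2 rose, where 3.08% were lower and 9.12% higher, so that these shares were near those of all genes. PHO84, which codes for the main high-affinity phosphate transporter, had a mean of 1235 CPM in wt and fell 18.2-fold in cyc8. Its snf2 libraries were at 1.22 and 0.998 CPM, and its log2 fold change there was -10.11. Of the 5 genes of the complex that makes polyphosphate, 4 fell in cyc8 against wt, VTC3 (log2 -2.96), VTC4 (log2 -1.82), VTC1 (log2 -1.46) and VTC5 (log2 -1.08), while VTC2 differed by a log2 value of -0.80 and was not called. The inhibitor gene PHO81 (log2 -1.69) and CTF19 (log2 -1.26) fell too. PHM7, a membrane protein gene, rose 36.0-fold in cyc8 against wt and 29.5-fold from snf2 to the double mutant. The activator gene PHO4 had means of 5.57 ± 0.642, 4.90 ± 1.86, 7.59 ± 1.12 and 5.35 ± 1.11 CPM (SD) in wt, cyc8, snf2 and the double mutant. PHO4 was not called in any of these comparisons. Its counts, 71 to 240 a library, come only from the bases that its model does not share (18.3 CPM per kb of them in wt). The median of the list was -0.30 in cyc8 and -0.28 in snf2 against wt.

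**Figure D5:**
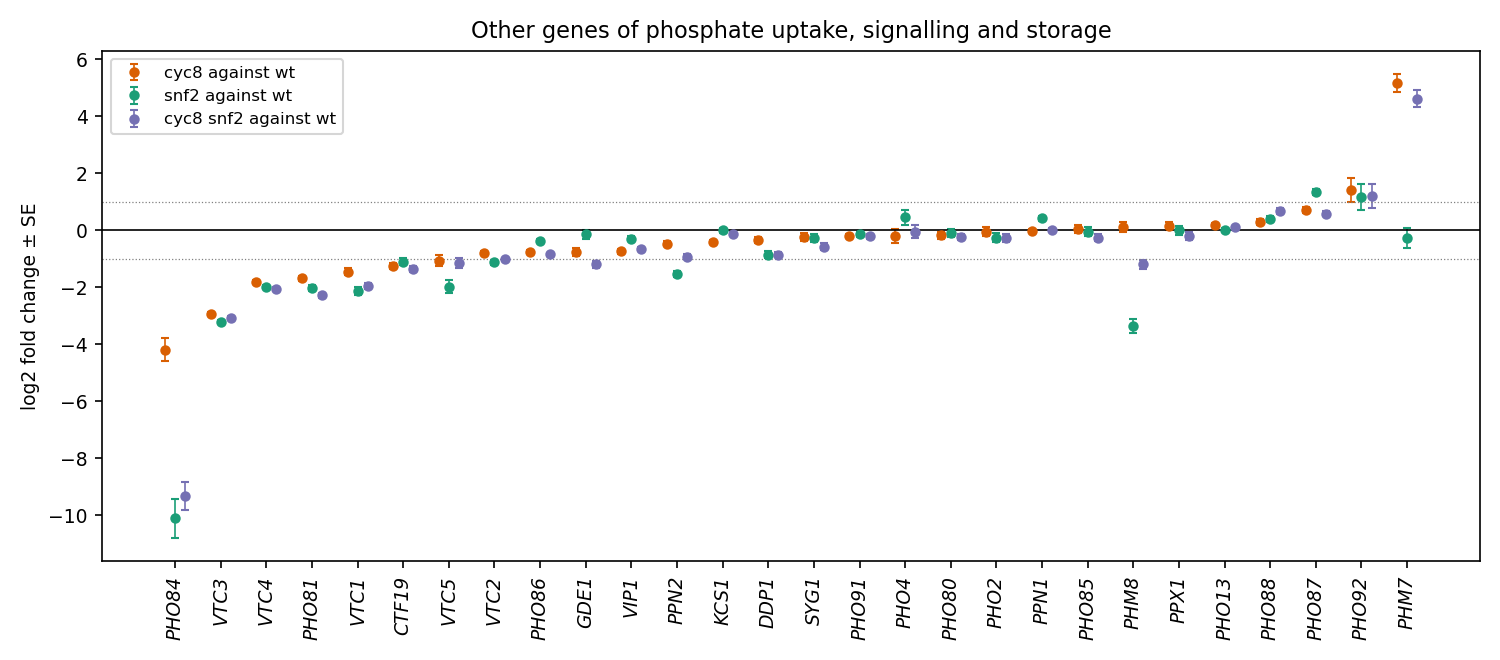
Log2 fold change, with bars of 1 SE, of the 28 genes of the list of other phosphate genes in cyc8 (orange), snf2 (green) and the double mutant (purple) against wt, ordered by the value in cyc8, with dotted lines at a log2 value of 1 in either direction. PHO84 is the lowest in cyc8 and snf2, at -4.19 and -10.11, and PHM7 is the highest in cyc8 at 5.17; the 3 comparisons share the wt libraries.

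Within the cyc8 group, replicate 3 was the lowest for 7 of the 10 genes, PHO11, PHO12, PHO8, PHO89, PHO90, SPL2 and PHM6. Without it the log2 fold changes of these genes in cyc8 against wt were -2.70, -5.59, -1.67, 4.01, 0.16, -4.73 and -6.21, in the same order, and the same 6 of them were called. Its scaling factor was 1.00, against 0.853 and 0.855 in the other cyc8 libraries, and the part of this difference was not tested. For what share of all genes replicate 3 was the lowest was not counted. The 7 of 10 are thus not shown to be particular to these genes.

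As a description, the genes most like each member over the 12 libraries were sought among 4759 genes of at least 10 CPM, by Pearson's r of log2 CPM, which the separation of the 4 groups largely sets. The pattern of PHO5 was most like that of SVS1 (r = 0.986), then YNL054W-B (r = 0.982) and the polyphosphate gene VTC4 (r = 0.981). That of PHO12 was most like SVS1 (r = 0.988) and that of PHO11 most like TIM8 (r = 0.978). SPL2 was most like VTC1 (r = 0.980), then GPM1 (r = 0.974). PHO3 was most like the cell wall sensor gene WSC4 (r = 0.988), PHO89 like the transporter gene PDR15 (r = 0.993), and PHM6 like the a-factor gene MFA1 (r = 0.984), which fell from 266 CPM in wt to 16.1 CPM in cyc8.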

How the data were processed

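The authors deposited raw read counts per gene, 1 column a library. The tools listed in the submitters' processing notes are STAR, featureCounts and deepTools, on build R64; their versions and strand setting are not given. Of 7150 genes, 6441 (90.1%) matched a RefSeq locus tag, and 12 ribosomal RNA genes (2 counts in all) were left out. The 115 gene models nested in another on the same strand had a median total of 0 counts, and the 91 named ones nested on the opposite strand 2339, so by these values shared reads were left out and the strand was used.

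Groups came from the labels. Counts were fitted with the quasi-likelihood test of edgeR 4.0.16 (robust, TMM, filterByExpr) in R 4.3.3, with all 12 libraries in 1 fit and 1 mean per group, and p-values adjusted over the 6171 genes tested. CPM uses TMM-scaled library sizes, where 3 counts, the limit that a count of 0 allows, are 0.105 to 0.192 CPM (counting error only). Libraries of a group differed beyond sampling noise (chi-square per degree of freedom 6.722 to 82.18). Equal replicate numbers did not deviate together (r of -0.135 to 0.2103), so they were not treated as pairs. Other settings tried were scaling by RLE or by the upper quartile, different filters, a fit of the compared libraries only, a replicate block, DESeq2 1.42.0, no robust option, other thresholds and leaving out each library. The members and lists were chosen with earlier results of these data known. The rule for named genes took the 10 genes, up to 6 called genes a list and comparison, PHO84, PHO4, the 3 most similar genes and the neighbours of each member; the text names part of these. Promoter windows were read from the RefSeq genome of build R64.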

Additional observations from a re-analysis of the deposited data

Results flagged for a closer look

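The change with the cyc8 label differed between the backgrounds by the interaction term of edgeR for 7 of the 10 genes. On the log2 scale the difference was 3.27 for PHO5, 1.81 for PHO3, 3.68 for PHO11, 4.36 for PHO12, 1.22 for PHO8, 7.01 for SPL2 and 4.30 for PHM6, with edgeR adjusted p from 2.783e-07 to 0.0008945. The part of the strain background in this difference was not tested, since it changes with the snf2 label. The snf2 libraries were already low for PHO5, PHO11, PHO12, SPL2 and PHM6, as the counts above show. The part of these low counts in the difference was not tested either.

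Among the 4 double mutant libraries, GIT1 was lower in replicate 1, at 5.50 CPM, than in the other 3, which lay close together at 6.18 to 6.28 CPM. The gap to the nearest library, as a share of the range, passed Dixon's critical value at 95%. With 10 groups of 4 libraries examined, chance alone flags about 1 in 20.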

How the results depend on the processing

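Over 22 other settings 1529 values of the 10 genes were compared: 1490 kept their direction and side of the threshold, 21 lost the call, 4 gained it and 14 changed sign. All sign changes were in values never called. With upper-quartile scaling PHO90 in cyc8 against wt turned to -0.0806. PHO5 in snf2 against cyc8 turned to -0.0894 with the replicate block and -0.00812 with DESeq2. Leaving out 1 library at a time, PHO90 ranged from -0.0788 to 0.236 in cyc8 against wt, from -0.0858 to 0.0222 in the double mutant against snf2, from -0.0121 to 0.141 in the double mutant against cyc8 and from -0.267 to 0.0478 in the interaction, and PHO5 in snf2 against cyc8 from -0.171 to 0.533. The cause was not tested.

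From cyc8 to the double mutant, 3 in place of 5 genes fell at an adjusted p below 0.01 and with the replicate block. There the adjusted p was 0.0549 for PHO11 and 0.1065 for PHO12. Leaving out 1 library gave 2 (without cyc8 replicate 1) to 5. With no minimum fold, 3 genes rose in cyc8 against wt and 2 in snf2 against cyc8, and over all genes 2890 in cyc8, 2216 in snf2 and 3143 in the double mutant against wt, 2969 in the double mutant against snf2, 1175 against cyc8, 3001 in snf2 against cyc8 and 1629 interactions were called, by construction. The median over all genes moved under upper-quartile scaling by -0.12 in cyc8 against wt, -0.13 in the double mutant against snf2 and 0.17 in snf2 against cyc8. A group left with 1 snf2 library was assumed to vary like the others. Below about 10 counts, as for PHM6 and PHO12, depth limits folds.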
